A study of Rattus norvegicus with 6 samples.

Results

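The miR-30 family of miRNAs was examined in rat primary sertoli cells that were cultured with or without 4-nonylphenol (4-NP), an alkylphenol with estrogen-like action. The family was taken as every mature miRNA in the deposited table whose name, without the arm, was rno-miR-30a, rno-miR-30b, rno-miR-30c, rno-miR-30d or rno-miR-30e. This gave 11 of 734 mature miRNAs, of which 5 were 5p arms and 6 were 3p arms. The control group held 3 samples without 4-NP and the 4-NP group held 3 samples exposed to 0.5 mM 4-NP, all collected at 24 h. The cells came from the testes of Sprague-Dawley rats aged 5 to 10 days, were enriched by enzyme digestion and were treated as passaged primary cultures, with no genetic change in either group. The labels do not say whether the samples of a group came from separate cultures or animals, so the p-values measure the spread between these samples only.

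A miRNA hairpin gives rise to a duplex with a 5p and a 3p arm, of which one is usually kept by an Argonaute protein as the guide and the other is mostly degraded. The guide finds its target mRNAs mainly through its seed, bases 2 to 8 counted from the 5′ end. In the miR-30 family the 5p arms are the usual guides and share a single seed, so the paralogs are expected to share many targets. The family is known in other tissues for restraining mesenchymal and profibrotic genes such as Snai1 and Ctgf and the autophagy gene Beclin 1.

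The mature sequences that RefSeq gives on the GRCr8 assembly are shown for 6 of the 11 members, with bases 2 to 8 in capitals, because the shared seed and the few bases outside it determine how well reads of the paralogs can be told apart. The 5p arms come first.

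rno-miR-30a-5p: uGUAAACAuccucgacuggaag

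rno-miR-30e-5p: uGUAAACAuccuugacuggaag

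rno-miR-30c-5p: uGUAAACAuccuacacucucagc

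The 3p arms follow.

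rno-miR-30a-3p: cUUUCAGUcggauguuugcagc

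rno-miR-30c-1-3p: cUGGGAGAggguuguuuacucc

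rno-miR-30c-2-3p: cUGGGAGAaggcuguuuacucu

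These 3 5p arms had the same first 12 bases. The only difference between rno-miR-30a-5p and rno-miR-30e-5p was C13U, counted from the 5′ end, and rno-miR-30a-5p differed from rno-miR-30c-5p at 5 positions of an ungapped comparison from that end. Among the 3p arms, rno-miR-30c-1-3p and rno-miR-30c-2-3p shared a seed and differed at 3 positions, while rno-miR-30a-3p had another seed. How reads were divided among paralogs is not given in the sources used here, so the split between near-identical arms is uncertain. rno-miR-30b-5p, rno-miR-30b-3p, rno-miR-30d-5p, rno-miR-30d-3p and rno-miR-30e-3p are given by name.

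In RefSeq's GRCr8 annotation the 6 miR-30 genes lie as neighbouring pairs on 3 chromosomes. Mir30b and Mir30d are on chromosome 7, within an lncRNA gene. Mir30e (chr5:139637450-139637541, minus strand) and Mir30c1 (chr5:139634455-139634543, minus strand) are on chromosome 5 within the span of Nfyc, which encodes a subunit of the NF-Y transcription factor. Mir30a (chr9:33233941-33234011, plus strand) and Mir30c2 (chr9:33253682-33253765, plus strand) are on chromosome 9. The mature miR-30c-5p is encoded by both Mir30c1 and Mir30c2, whereas each of their 3p arms comes from 1 gene. These positions describe RefSeq only, since the build used for counting is not given in the sources used here.

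Each library held 20023200 to 23426742 reads on mature miRNAs, and 62.0 to 63.9% of these were miR-21-5p. Levels are given as CPM, the read count scaled to a common total of 1000000 mature miRNA reads, without correction for length. The 95% Wilson interval of 1 sample covers counting error only. It treats reads as independent, because no usable count of molecules is given for known miRNAs, so it may be too narrow. All markers written for 6 cell types were counted, and each had reads in at least 1 sample. Their summed CPM was 828 to 1214 in the controls and 714 to 815 after 4-NP for sertoli cells and gonad soma, where miR-202-5p took most of it. It was 136655 to 151990 against 100550 to 111331 for peritubular myoid cells and mesenchyme, and 6325 to 7615 against 3234 to 3805 for endothelium. Most of the mesenchyme sum was miR-143-3p (117869 to 133846 against 86726 to 94741 CPM). In that list miR-199a-5p and miR-214-3p were also lower in every 4-NP sample, while miR-145-5p and miR-199a-3p overlapped. Both endothelium markers were lower in every 4-NP sample. The lists for germ cells (178 to 184 against 145 to 174), red cells (11.0 to 40.7 against 59.3 to 631) and white cells (8.05 to 10.5 against 8.36 to 14.1) were lower still than those of sertoli cells. The red cell sum was mostly miR-451-5p, with overlap for the other red cell markers, and each white cell marker overlapped between the groups. The germ cell sum was mostly miR-449a-5p (114 to 129 against 92.4 to 119 CPM), and other members of that list moved in opposite directions. miR-34b-5p (6.79 to 10.0 against 15.8 to 22.6 CPM), miR-34b-3p (9.26 to 14.1 against 20.4 to 24.6 CPM) and miR-34c-5p (3.59 to 7.54 against 12.3 to 14.1 CPM) were higher in every 4-NP sample. By contrast, miR-880-3p (11.5 to 12.6 against 0 to 0.949 CPM) and miR-871-3p (2.90 to 25.3 against 0.0904 to 1.55 CPM) were lower in every 4-NP sample. Markers with 0 reads in some 4-NP samples were miR-880-3p (replicate 2), miR-883-3p (all 3, against 0.0449 to 0.299 CPM in the controls) and miR-202-3p (replicate 3, against 4.02 and 6.14 CPM in replicates 1 and 2 and 0.384 to 2.90 CPM in the controls). The part of these marker changes in the values below was not tested, and in bulk samples fewer cells of a type and less RNA per cell cannot be told apart.

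The miR-30 family took a larger share of the mature miRNA reads after 4-NP. Its 11 members together made up 0.493, 0.494 and 0.506% of the reads in control replicates 1, 2 and 3 and 0.799, 0.694 and 0.676% in 4-NP replicates 1, 2 and 3. Every 4-NP sample was above every control, and the means were 0.497% ± 0.00746 and 0.723% ± 0.0663 (SD, n = 3 each), 1.45 times as high after 4-NP. Counting error was small beside this, with intervals of at most 0.00371 percentage points on either side. As the share is a sum over chosen members, no p was computed. Without miR-30d-5p, the most abundant member, the rest made up 0.181% ± 0.00469 in the controls and 0.238% ± 0.0516 after 4-NP (SD, n = 3 each). The mean was 1.31 times as high, and the gap between the groups was small (0.191% in 4-NP replicate 2, 0.186% in control replicate 1). With the TMM scaling factors of the edgeR test used below, the groups would overlap for this rest.

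**Figure D1:**
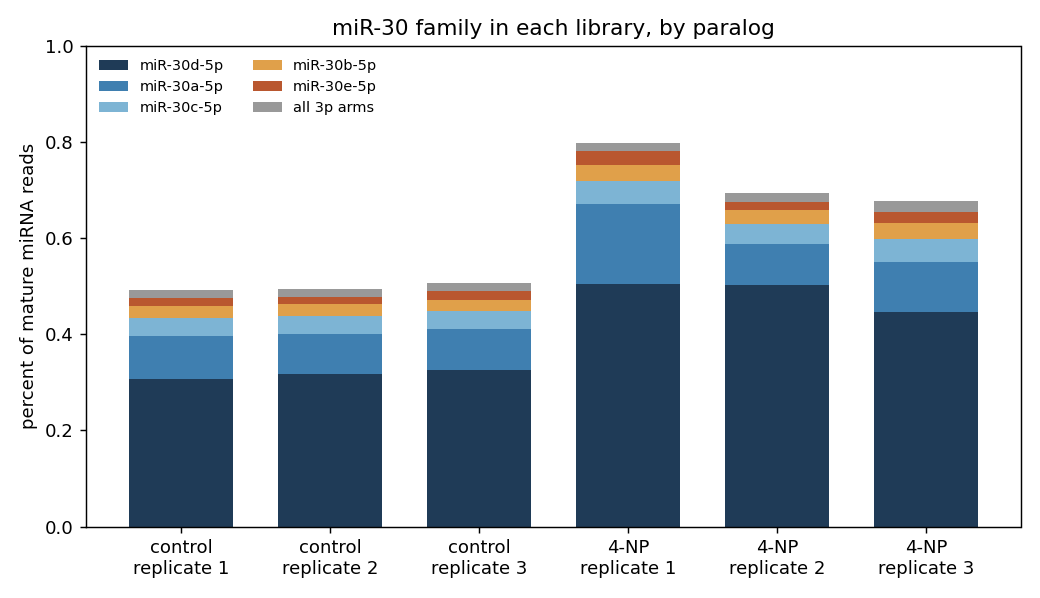
Stacked bars give the percent of mature miRNA reads (y axis) that each miR-30 5p arm and the sum of the 3p arms took in each of the 6 samples (x axis). The bars reach 0.493 to 0.506% in the controls and 0.676 to 0.799% after 4-NP, and miR-30d-5p is the largest part of each.

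All 11 members had enough reads to be tested, and miR-30d-5p was the 1 member that rose (edgeR's quasi-likelihood test, Benjamini-Hochberg threshold of 0.05). None fell, also in DESeq2 and limma, and the number lower at an unadjusted p below 0.05 in edgeR was 0, with miR-30c-1-3p nearest (unadjusted p = 0.0572). Over all 549 tested miRNAs, 7.47% were called higher and 12.8% lower by the same rule, so the number of calls in the family was near the background. By the thresholds that the study used, more than 2-fold up or less than 0.5-fold with an unadjusted p below 0.05, none of the members passed, against 5.83% higher and 9.84% lower of all tested miRNAs. In CPM, 6 members were higher and 1 was lower without overlap between the groups, where the background was 19.9% and 22.6%. CPM leaves out the TMM scaling factors of the edgeR test. These were 0.951, 1.09 and 0.947 in control replicates 1, 2 and 3 and 1.05, 1.02 and 0.956 in 4-NP replicates 1, 2 and 3. Those factors would make the groups overlap for miR-30c-5p, miR-30a-3p, miR-30b-3p and miR-30e-3p, and the background was not recounted with them. The median log2 fold change of the 11 members was 0.34, against -0.02 for all tested miRNAs. It was 0.37 for the 5p arms, of which all 5 had a fitted value above 0, and 0.11 for the 3p arms, of which 3 of 6 did.

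miR-30d-5p was the most abundant member and the 19th most abundant of all mature miRNAs. Its level was 3065, 3164 and 3256 CPM in the controls and 5057, 5026 and 4468 CPM after 4-NP. The groups lay far apart relative to the spread within them. Means and SDs were 3162 ± 95.7 and 4850 ± 332 CPM (n = 3 each). The fitted log2 fold change was 0.59 ± 0.10 (SE; edgeR, adjusted p = 0.00746), and 3 of 3 4-NP samples were higher. The call held in each of the 16 other fits, in which the log2 fold change ran from 0.53 to 0.66 and the adjusted p from edgeR, limma or DESeq2 was at most 0.0369.

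miR-30b-5p, from the gene beside Mir30d, had 257, 248 and 238 CPM in the controls and 334, 308 and 331 CPM after 4-NP. All 4-NP samples were above all controls. The log2 fold change was 0.37 ± 0.13 (SE; edgeR, adjusted p = 0.0949). It passed 0.05 in DESeq2 (adjusted p = 0.00891) and in edgeR when miR-21-5p was left out of the library (adjusted p = 0.0464). The adjusted p in edgeR was 0.129 with a replicate block and 0.223 without control replicate 2. So the call of miR-30b-5p depended on the scaling and the tool. Its log2 fold change stayed above 0, at 0.31 to 0.49, when each sample was left out in turn.

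miR-30c-5p, the arm that both Mir30c1 and Mir30c2 encode, had 375, 371 and 354 CPM in the controls and 483, 400 and 479 CPM after 4-NP. The groups did not overlap, but the difference did not pass the test (log2 fold change 0.29 ± 0.14, SE; edgeR, adjusted p = 0.2). Without 4-NP replicate 2 the fold change was 0.46 on the log2 scale (edgeR, adjusted p = 0.0746). It moved the other way, to 0.22 without 4-NP replicate 3 and 0.23 without control replicate 2 (edgeR, adjusted p = 0.337 and 0.406).

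miR-30a-5p was the next most abundant arm after miR-30d-5p, with 897, 844 and 865 CPM in the controls and 1647, 860 and 1047 CPM after 4-NP. The high value was that of 4-NP replicate 1, while 4-NP replicate 2 lay within the control range. The log2 fold change of 0.42 ± 0.24 (SE; edgeR, adjusted p = 0.251) became 0.16 without 4-NP replicate 1 and 0.69 without 4-NP replicate 2.

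miR-30e-5p, the least abundant 5p arm, had 174, 153 and 189 CPM in the controls and 295, 162 and 212 CPM after 4-NP. The 4-NP samples stood in the same order as for miR-30a-5p, with replicate 1 highest and replicate 2 lowest. The log2 fold change was 0.34 ± 0.25 (SE; edgeR, adjusted p = 0.355). It was 0.14 without 4-NP replicate 1, 0.62 without 4-NP replicate 2 and 0.21 without control replicate 2. The number of miR-30a-5p reads per miR-30e-5p read was 5.17, 5.52 and 4.57 in the controls and 5.58, 5.31 and 4.95 after 4-NP, so the ratio was similar in all 6 libraries. These arms come from different chromosomes but are 1 base apart in sequence. How reads were divided between them is not given, and its part in this ratio was not tested.

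**Figure D2:**
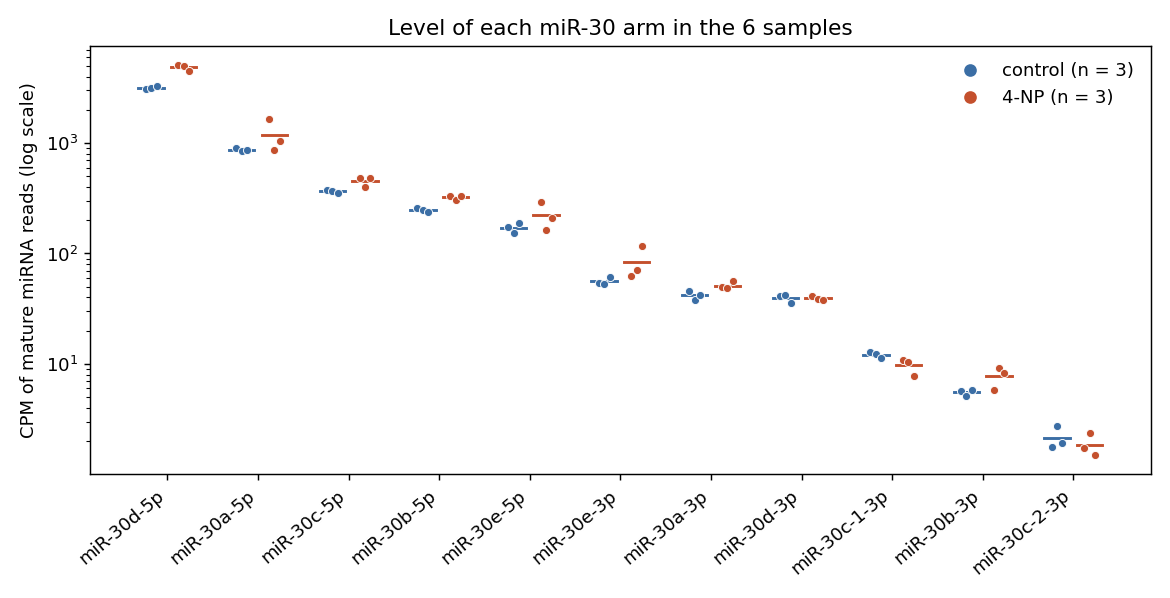
Points give the level of each of the 11 miR-30 arms (x axis) in CPM of mature miRNA reads (y axis, log scale) in 3 control and 3 4-NP samples, and horizontal lines give group means. miR-30d-5p lies at 3065 to 3256 CPM in the controls and 4468 to 5057 CPM after 4-NP, while miR-30c-2-3p lies below 3 CPM in every sample.

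The 3p arms were read far less often and differed in direction. miR-30e-3p was the most abundant of them, with 54.5, 53.3 and 61.3 CPM in the controls and 61.9, 70.9 and 117 CPM after 4-NP. The groups did not overlap, and the highest value was that of 4-NP replicate 3, not of replicate 1 as for its 5p arm. Its log2 fold change was 0.55 ± 0.29 (SE; edgeR, adjusted p = 0.224) and 0.19 without 4-NP replicate 3.

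miR-30a-3p had 46.1, 38.2 and 41.9 CPM in the controls and 49.2, 48.1 and 56.1 CPM after 4-NP, a narrow gap between the groups that did not pass the test (log2 fold change 0.26 ± 0.17, SE; edgeR, adjusted p = 0.314). On the log2 scale this change was 0.14 without control replicate 2, 0.16 without 4-NP replicate 3 and 0.39 without 4-NP replicate 2. miR-30b-3p had 5.68, 5.15 and 5.79 CPM in the controls and 5.83, 9.09 and 8.22 CPM after 4-NP. Replicate 1 of the 4-NP group was barely above the controls. The log2 fold change of miR-30b-3p was 0.46 ± 0.22 (SE; edgeR, adjusted p = 0.2), and without 4-NP replicate 1 it was 0.66 with an adjusted p of 0.0497 in edgeR. This value was 0.35 without control replicate 2 and 0.39 without 4-NP replicate 3 (edgeR, adjusted p = 0.430 and 0.337).

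miR-30d-3p, the other arm of the hairpin of miR-30d-5p, had 41.3, 42.1 and 35.8 CPM in the controls and 40.9, 38.6 and 37.8 CPM after 4-NP. The groups overlapped, and its log2 fold change was -0.04 ± 0.11 (SE; edgeR, adjusted p = 0.819).

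miR-30c-1-3p was the 1 member whose 4-NP samples all lay below the controls, with 12.7, 12.3 and 11.3 CPM in the controls and 10.9, 10.4 and 7.76 CPM after 4-NP. The difference did not pass the test (log2 fold change -0.35 ± 0.15, SE; edgeR, adjusted p = 0.153), and the log2 value was -0.23 without 4-NP replicate 3. miR-30c-2-3p was the rarest member, with read counts of 41, 63 and 43 for the controls against 38, 47 and 33 after 4-NP. Its 33 reads in 4-NP replicate 3 gave 1.51 CPM with a 95% Wilson interval of 1.07 to 2.12 CPM, so counting error was a large part of its spread, and its log2 fold change of -0.21 ± 0.24 (SE; edgeR, adjusted p = 0.574) was within the error. It was -0.077 without control replicate 2, -0.13 without 4-NP replicate 1, -0.33 without 4-NP replicate 2 and -0.10 without 4-NP replicate 3.

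**Figure D3:**
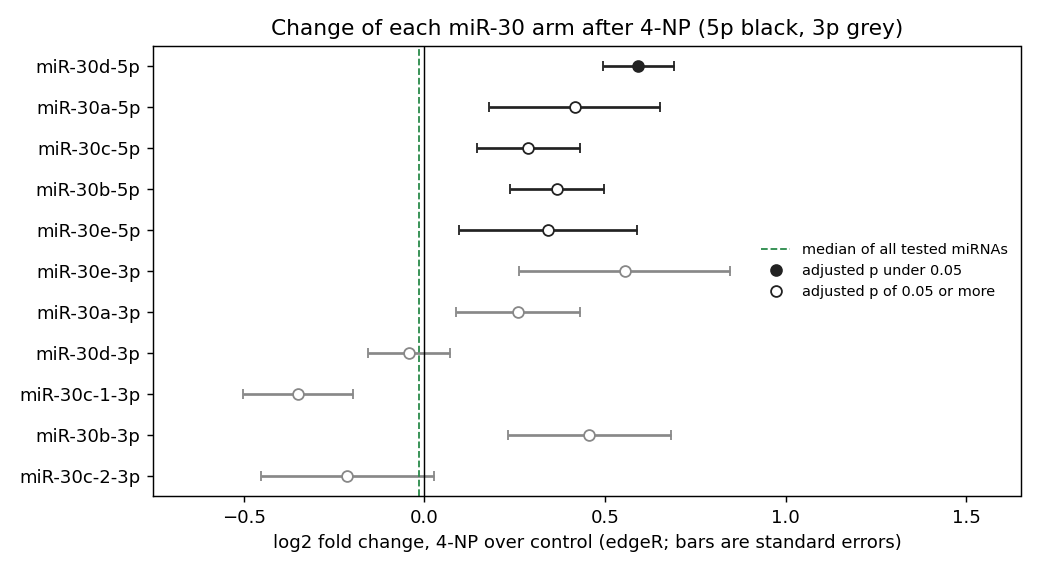
Points give the log2 fold change of 4-NP over control (x axis) of each miR-30 arm (y axis) from edgeR, with bars of 1 standard error, and the dashed line gives the median of all 549 tested miRNAs. The filled point is miR-30d-5p at 0.59, the 5p arms all lie above 0, and the 3p arms run from -0.35 to 0.55.

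Within a library the ratio of 5p to 3p reads of a hairpin does not depend on scaling. The 5p arm was the more abundant in every hairpin and every sample, and it made up 96.6 to 97.9% of the members' reads. The hairpins differed widely in this ratio, from 1.81 to 4.77 5p reads per 3p read for miR-30e to 74.3 to 130 for miR-30d. For miR-30c the 5p reads come from both genes, so their ratio to either 3p arm is not that of a single hairpin.

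For miR-30d the ratio was 74.3, 75.1 and 91.0 in the controls and 124, 130 and 118 after 4-NP, so that the groups did not overlap. The mean log2 ratio was higher by 0.64 after 4-NP (6.32 ± 0.16 against 6.95 ± 0.07, SD, n = 3 each; exact two-sided permutation p = 0.1, 0.3 after Benjamini-Hochberg adjustment over the 6 ratios). A p of 0.1 is the smallest that 3 samples against 3 allow, so no ratio could pass 0.05. The difference was 0.58 to 0.73 when each sample was left out in turn.

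miR-30c-5p was also more abundant relative to the 3p arm of Mir30c1 in each 4-NP sample, with 29.4, 30.3 and 31.2 reads per miR-30c-1-3p read in the controls and 44.3, 38.5 and 61.6 after 4-NP. The groups did not overlap, and the mean log2 ratio was higher by 0.64 (4.92 ± 0.04 against 5.56 ± 0.35, SD, n = 3 each; exact permutation p = 0.1, adjusted 0.3). This difference was 0.45 without 4-NP replicate 3 and 0.79 without 4-NP replicate 2. Relative to miR-30c-2-3p the ratio of miR-30c-5p was 214, 136 and 184 in the controls and 281, 170 and 317 after 4-NP, with overlap (log2 difference 0.50, exact permutation p = 0.3, adjusted 0.6). That difference was 0.32 without control replicate 2 or 4-NP replicate 3 and 0.77 without 4-NP replicate 2.

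The other hairpins showed no such separation. For miR-30a the ratio was 19.5 to 22.1 in the controls and 33.5, 17.9 and 18.7 after 4-NP (log2 difference 0.11, exact permutation p = 1), and its direction turned without 4-NP replicate 1 (-0.18), while it was 0.27 without 4-NP replicate 2, 0.24 without 4-NP replicate 3 and 0.065 without control replicate 1. For miR-30b it was 41.2 to 48.2 in the controls and 57.3, 33.9 and 40.2 after 4-NP (log2 difference -0.07, exact permutation p = 0.8), and the direction turned without 4-NP replicate 2 (0.10), with values of -0.28 to -0.012 on omission of each other sample. For miR-30e it was 2.87 to 3.18 in the controls and 4.77, 2.29 and 1.81 after 4-NP (log2 difference -0.17, exact permutation p = 0.7), and the direction turned without 4-NP replicate 3 (0.12), while it was -0.58 without 4-NP replicate 1 and -0.051 without 4-NP replicate 2. In all 3 hairpins 4-NP replicate 1 had the highest ratio of the 6 samples and another 4-NP sample the lowest.

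**Figure D4:**
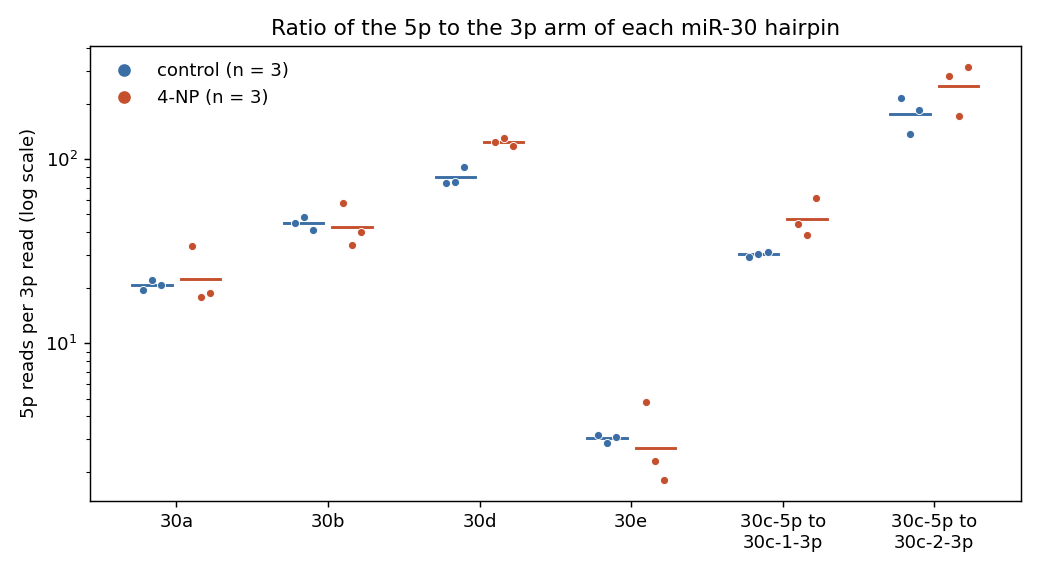
Points give the number of 5p reads per 3p read (y axis, log scale) of each miR-30 hairpin (x axis) in 3 control and 3 4-NP samples, and lines give geometric means. The groups are apart for miR-30d (74.3 to 91.0 against 118 to 130) and for miR-30c-5p to miR-30c-1-3p (29.4 to 31.2 against 38.5 to 61.6), and they overlap for the others.

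The composition of the 5p pool, which carries the shared seed, was compared next. Of the 5p reads, miR-30d-5p made up 64.3, 66.2 and 66.4% in the controls and 64.7, 74.4 and 68.4% after 4-NP. In 4-NP replicate 1 its share was within the control range, and the difference of 3.51 percentage points (exact permutation p = 0.3, adjusted 0.5 over the 5 shares) was 0.89 without 4-NP replicate 2 and 5.74 without 4-NP replicate 1. The share of miR-30a-5p was 18.8, 17.7 and 17.6% in the controls and 21.1, 12.7 and 16.02% after 4-NP, so that 4-NP replicates 1 and 2 lay on either side of the controls (exact permutation p = 0.7). Its difference of -1.43 percentage points was -3.66 without 4-NP replicate 1 and 0.51 without 4-NP replicate 2. The shares of miR-30c-5p (7.22 to 7.86% against 5.92 to 7.32%), miR-30b-5p (4.86 to 5.38% against 4.28 to 5.06%) and miR-30e-5p (3.20 to 3.86% against 2.40 to 3.78%) overlapped as well, with exact permutation p-values of 0.2, 0.2 and 0.5. The difference for miR-30e-5p, -0.43 percentage points, was -0.057 without 4-NP replicate 2, -0.75 without 4-NP replicate 1 and -0.28 without control replicate 3, and that for miR-30b-5p, -0.51, was -0.34 without 4-NP replicate 1. The smallest adjusted p over the 5 shares was 0.5. Counting intervals of these shares were at most 0.281 percentage points on either side. The order of the 5p arms by mean level was miR-30d, 30a, 30c, 30b and 30e in both groups, and no neighbours in that order overlapped within a group.

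Among the 3p arms the order by mean was miR-30e, 30a, 30d, 30c-1, 30b and 30c-2 in both groups. In the controls miR-30a-3p and miR-30d-3p overlapped (38.2 to 46.1 and 35.8 to 42.1 CPM), and after 4-NP miR-30c-1-3p and miR-30b-3p did (7.76 to 10.9 and 5.83 to 9.09 CPM).

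By gene pair, the arms of miR-30b and miR-30d on chromosome 7 summed to 0.345% ± 0.00839 of the mature reads in controls against 0.522% ± 0.0328 after 4-NP (SD, n = 3 each), without overlap. The arms assigned to 1 gene on chromosome 9, miR-30a and miR-30c-2-3p, had 0.0913% ± 0.00298 and 0.124% ± 0.0411, and those on chromosome 5, miR-30e and miR-30c-1-3p, had 0.0240% ± 0.00216 and 0.0316% ± 0.00650, both with overlap. Within the pair on chromosome 7, miR-30d-5p had 11.9, 12.7 and 13.7 reads per miR-30b-5p read in the controls and 15.1, 16.3 and 13.5 after 4-NP, with overlap. Within the pair on chromosome 5, the number of miR-30e-3p reads per miR-30c-1-3p read was 4.29, 4.35 and 5.40 in the controls and 5.69, 6.82 and 15.1 after 4-NP, so this ratio of 3p arms from neighbouring genes was higher in each 4-NP sample than in any control, which was not tested.

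Of the other mature miRNAs with a RefSeq sequence, 1 that was counted had the seed of the miR-30 5p arms.

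rno-miR-384-5p: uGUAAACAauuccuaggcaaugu

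miR-384-5p was rare beside the family, with 7.30, 5.41 and 6.19 CPM in the controls and 8.68, 8.24 and 11.6 CPM after 4-NP. All 4-NP samples were above all controls, but the difference did not pass the test (log2 fold change 0.57 ± 0.24, SE; edgeR, adjusted p = 0.14).

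Other families of paralogs with a shared seed served as a comparison. None of their arms passed an adjusted p under 0.05 in edgeR, and their median log2 fold changes were 0.10 for 9 let-7 5p arms, 0.40 for 3 miR-29 3p arms and 0.18 for 4 miR-181 5p arms, against 0.37 for the 5 miR-30 5p arms. The arms ran from -1.24 to 0.30 for let-7, 0.15 to 0.42 for miR-29, 0.03 to 0.21 for miR-181 and 0.29 to 0.59 for the miR-30 5p arms. The difference between the families was not tested.

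Among 134 miRNAs outside the family with a mean of at least 100 CPM, the pattern over the 6 samples most like that of the summed miR-30 5p arms was that of miR-20a-5p (Pearson's r of log2(CPM + 1) of 0.998), followed by miR-708-5p (0.985) and miR-148a-3p (0.978). miR-20a-5p had 378, 381 and 393 CPM in the controls and 609, 540 and 533 CPM after 4-NP. For miR-708-5p the levels were 79.3, 73.0 and 77.6 CPM in the controls and 287, 241 and 227 CPM after 4-NP. It reached the mean of 100 CPM only through the 4-NP samples, so the filter favoured such a pattern. These r values describe 6 libraries that fall into 2 groups and share their scaling, and no p was computed.

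The table also holds a row for reads placed on the mir-30 precursor family of Rfam, without a paralog or arm. Its read counts were 38746, 44630 and 35557 for the controls against 49066, 36372 and 44376 after 4-NP, which is 31.5 to 39.2% of the reads of the 11 members in the controls and 26.2 to 30.0% after 4-NP. It ranked 5th of 177 precursor rows by reads. Relative to mature reads its level was 1654, 1932 and 1595 CPM in the controls and 2217, 1816 and 2027 CPM after 4-NP, so the groups overlapped, unlike the sum of the members. With these reads added, the family made up 0.669% ± 0.0147 in the controls and 0.923% ± 0.0825 after 4-NP (SD, n = 3 each), 1.38 times as high and without overlap. Which arms these reads belong to was not tested.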

How the data were processed

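Small RNA of 18 to 30 nt from 3 control and 3 4-NP-treated samples was sequenced. The authors ligated adapters with molecular identifiers and deposited the read count of each small RNA per sample, without normalization. The submitters' processing notes name HISAT2 and DESeq2, and the paper names edgeR, while the role of the aligner, the miRNA database and the genome build are not given in the sources used here. A deposited column named for the identifiers holds the value 1 for all 673 known miRNAs wherever they have reads, and was not used. Rows for exons, introns, intergenic sequence and repeats (3.52 to 5.91% of the reads) name no RNA and were left out.

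The sum of mature miRNA counts was the library size (20023200 to 23426742). 3 reads correspond to 0.128 to 0.150 CPM. In R 4.3.3, edgeR 4.0.16 fitted its quasi-likelihood model to all 734 mature miRNAs with TMM factors, of which filterByExpr kept 549 (common dispersion 0.118), with two-sided tests and Benjamini-Hochberg adjustment over all of them. Each standard error is the fitted log2 fold change over the root of its F value. Arm ratios and 5p shares were compared by exact two-sided permutation tests in SciPy 1.17.1. Alternatives were RLE factors, total-count scaling, all named small RNA reads as library size, omission of miR-21-5p, DESeq2 1.42.0, limma 3.58.1 on log2(CPM + 1), no filter, at least 10 counts in every sample, known miRNAs only, a replicate block, and omission of each sample. The procedure was tested on simulated data. Replicates of a group differed by more than counting error (chi-square per degree of freedom of 154 to 942), so none was merged.

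All members are named, with every other counted miRNA of the same seed and the 3 miRNAs most like the summed 5p arms. These 3 were taken from those with a mean of at least 100 CPM over all samples. The members and lists were chosen with earlier results of these data known. Sequences and gene positions are those of RefSeq on GRCr8, and 606 of the 734 mature names matched.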

Additional observations from a re-analysis of the deposited data

How the results depend on the processing

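The call of miR-30d-5p was kept under each alternative, and none of the members was called lower under any. The number of members called higher was 1 in the edgeR test and 2 with DESeq2 and with miR-21-5p left out of the library (miR-30b-5p in both). It ran from 1 to 2 when each sample was left out in turn, where miR-30b-3p was added without 4-NP replicate 1. With a replicate block the log2 fold change of miR-30d-5p was 0.60 (adjusted p = 0.0369 in edgeR) and the number of members called was still 1, while the calls over all miRNAs went from 41 higher and 70 lower to 26 and 56. Samples with the same number did not deviate together (correlations of -0.30, -0.26 and -0.02), so the numbers were not taken as pairs, and no sample correlated best with its own number. The fold change of miR-30d-3p, near 0 in that test, was 0.017 without miR-21-5p in the library and ran from -0.11 to 0.055 when each sample was left out. On omission of each sample the log2 arm ratio differences ran from -0.18 to 0.27 for miR-30a, -0.28 to 0.10 for miR-30b, -0.58 to 0.12 for miR-30e and 0.32 to 0.77 for miR-30c-5p to miR-30c-2-3p, and the difference in the share of miR-30a-5p from -3.66 to 0.51 percentage points. The difference between the groups in the mean log2 share of the family was 0.54 with all members and 0.37 without miR-30d-5p. That omission was a choice made after the values were seen, as were the addition of precursor reads and the 5p shares without miR-30a-5p. Depth limited miR-30c-2-3p, whose counting interval reached 34.6% of its value on either side. The causes of these shifts were not tested.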
